A study of Mus musculus with 20 samples.

Results

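The 10 genes described here encode the peptide precursors of the POMC neurons of the hypothalamic arcuate nucleus (ARC) and proteins that process, regulate or end the action of those peptides, and they were chosen by symbol from the 22048 genes counted. They were Pomc, Cartpt, Pcsk1, Pcsk2, Pcsk1n, Cpe, Pam, Scg5, Prcp and Nhlh2. Each was measured by RNA-seq in laser-captured ARC of male C57BL6/J mice given in the labels as 10 weeks old, and the study's methods place acclimatization and a baseline period before treatment. Vehicle mice drank 1% ethanol, and Cort mice drank corticosterone at 75 µg/ml in the same 1% ethanol, for either 2 days or 4 weeks, with 5 samples in each of the 4 groups. The 4 week mice alone were then fasted for 16 hours and refed for 24 hours while treatment went on. Cort in the drinking water is a model of glucocorticoid excess in whole animals, so every tissue was exposed and not the ARC alone. In each dataset the authors left out 2 vehicle samples and 1 Cort sample as outliers, and the comparisons below rest on the 3 vehicle and 4 Cort samples that were kept, with the values of the others given beside them. At 2 days the groups follow the names of the raw count columns, and the normalised table holds the same values under other names for 5 of the 7 samples kept, 4 of them under the name of a sample of the other treatment. Taken in the order of their names, the normalised columns hold the values of raw C02, C04 and C05, then of C01, C03, C06 and C10. By the raw names these are the vehicle samples kept, followed by the Cort samples kept. No file states which naming is right, so every 2 day direction below rests on the raw names. With the raw names Agrp was higher with Cort at 2 days, at a log2 fold change of 1.32, and 8 genes passed Padj below 0.1 by edgeR. With the names of the normalised table Agrp was lower with Cort, and 0 genes passed. The study reports more Agrp after the short Cort treatment and in separate mice treated for longer, which is the direction given by the raw names.

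POMC neurons restrain feeding through α-MSH, a peptide cut out of the precursor encoded by Pomc. The prohormone convertases Pcsk1 and Pcsk2 cut the precursor after pairs of basic residues, Cpe trims those residues from the new ends, and Pam turns an exposed glycine into a C-terminal amide. Pcsk1n encodes proSAAS, an inhibitor of Pcsk1, and Scg5 encodes the chaperone that Pcsk2 needs to mature. Prcp removes the last residue of α-MSH and so ends its action at the receptor. Nhlh2 is a transcription factor known to act on Pcsk1, and Cartpt encodes the CART peptides that most POMC neurons of the mouse ARC also make.

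Sequences with the codon pattern for these enzymes are shown because all of the later comparisons concern genes for some step of this route. They were read from the GENCODE M21 transcripts of GRCm38, 5′ to 3′ on the coding strand. The Pomc coding sequence held 235 codons and 7 runs of 2 or more basic codons, and 2 of these runs followed a glycine codon directly. Capitals mark the glycine codon and the basic codons after it, the kind of site that Pcsk1 or Pcsk2, Cpe and Pam can act on. Only the codon pattern was read, and whether each marked site is cut, trimmed or amidated was not tested. The lines give the stretch from the end of the previous basic run to the end of this one, and the third is from Scg5, whose 212 codons held 4 such runs.
Pomc, joining peptide (chr12:3960067-3960129, plus strand): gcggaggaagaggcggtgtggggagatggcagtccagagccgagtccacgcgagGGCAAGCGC
Pomc, α-MSH (chr12:3960130-3960183, plus strand): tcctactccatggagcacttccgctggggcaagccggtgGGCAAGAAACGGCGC
Scg5, C-terminal part (chr2:113776867-113776896, minus strand): agtgtcaatccctatctacaaGGAAAGAGG
The α-MSH stretch had 13 codons before its glycine and was closed by a run of 4 basic codons, whereas the joining peptide had 18 codons and closed with 2. Each of these stretches lay within 1 exon. The 129 codons of Cartpt and the 258 codons of Pcsk1n each held 5 basic runs, and 0 of them followed a glycine codon.

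The total count per sample was 2487063 to 5748223 at 2 days and 1065776 to 5196364 at 4 weeks, and 3 counts, taken as the floor of detection, equalled 0.522 to 1.21 counts-per-million (CPM) and 0.577 to 2.81 CPM. At 2 days the 6 neuronal markers summed to 3358 to 3755 CPM in vehicle samples against 3147 to 3813 CPM in Cort samples, and at 4 weeks to 2649.6 to 2872 against 2954 to 3361 CPM. Pomc is also a pituitary gene, and the 9 pituitary markers summed to at most 56.9 CPM in any sample, with Lhb, Pitx1 and Pou1f1 at or under 3 counts in all 20. That sample, 2 day Cort C03, had the least Pomc of its group, at 322 CPM. The next highest sums were 43.4 CPM in 2 day Cort C08 and 37.6 CPM in 2 day vehicle C09. Those samples had Pomc at 529.9 and 377 CPM, each the second highest of its group. The part of pituitary tissue in the level of Pomc was not tested. At 4 weeks 7 of the 9 were at or under 3 counts in every sample. The 5 markers of the neighbouring ventromedial hypothalamus summed to at most 81.1 CPM in a 2 day sample and 89.8 CPM in a 4 week sample, where Nr5a1, which defines that nucleus, was at or under 3 counts throughout. The 4 week mice differed from the 2 day mice in section thickness, slides, laser system, sequencer and the fast, so a difference between the datasets and these steps cannot be told apart.

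Per kilobase of exon, Cpe was the most abundant of the 10 genes in every group, and Nhlh2 and Prcp were the least. In the 2 day vehicle samples Cpe was at 504 ± 33.2 CPM per kilobase (SD, n = 3) and stood above Cartpt in every sample, with Cartpt at 287 ± 28.6. Pomc at 232 ± 46.3 and Pcsk1n at 220.0 ± 29.3 CPM per kilobase came next, and their ranges overlapped. Scg5 followed at 120.1 ± 28.2 and Pam at 32.8 ± 1.76 CPM per kilobase, each separate from its neighbours. The convertases Pcsk2 and Pcsk1 were level at 16.7 ± 1.10 and 16.6 ± 2.11 CPM per kilobase, with overlapping ranges, so the RNA of the precursor stood above that of the enzymes that cut it. Nhlh2 and Prcp lay at 3.24 ± 1.21 and 3.05 ± 0.650 CPM per kilobase and could not be ordered. In the 4 week vehicle samples Cpe and Pomc held the top places, at 352 ± 16.4 and 144 ± 21.1 CPM per kilobase, and neither overlapped the gene below it, while from Cartpt at 112 ± 3.35 down to Nhlh2 only the step from Pcsk1n to Pcsk2 separated every sample. Among all genes tested with a known length, Pomc held place 108 of 12291 by the vehicle level per kilobase at 2 days and place 141 of 11199 at 4 weeks, and Cpe held places 31 and 33. In the Cort samples Pomc came second to Cpe in both datasets, at 341 ± 76.2 and 143 ± 36.3 CPM per kilobase (SD, n = 4), with the range of Cartpt overlapping it each time.

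After 2 days of Cort, Pomc averaged 1.48 times its vehicle level (95% interval 1.15 to 1.90), the smallest P of the 10 genes, but it did not pass the threshold of Padj below 0.1. None of the 10 genes passed it by edgeR or by DESeq2, and 1 of 10, Pomc, had an unadjusted P below 0.05 by either tool. Over all 12309 genes tested, 0.065% passed Padj below 0.1 and 5.97% had an unadjusted P below 0.05. The median log2 fold change of the 10 genes was -0.046, beside 0.018 over all genes, and 4 were positive and 6 negative. For 0 of the 10 did the kept vehicle and Cort samples separate, where 6.63% of all genes did, and over all 10 samples it was 0 again, against 0.804%.

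Pomc (ENSMUSG00000020660, chr12:3954951-3960642, plus strand) was at 236 in C02, 335 in C04 and 347 in C05, against 428 in C07 and 377 in C09 among those left out (CPM, vehicle). With Cort it was at 558 in C01, 322 in C03, 425 in C06 and 490.4 in C10, against 529.9 in C08 among those left out (CPM). Of the kept Cort samples, C01, C06 and C10 exceeded every kept vehicle sample and C03 did not, and the left out vehicle sample C07 was as high as Cort sample C06. Mean CPM was 306 ± 61.0 (SD, n = 3) for vehicle against 449 ± 100.4 (SD, n = 4) for Cort, and the log2 fold change was 0.56 ± 0.17 (SE) with Padj = 0.543 by edgeR's quasi-likelihood test, place 98 by P among the genes tested. Over the alternatives run its Padj ranged from 0.223 by DESeq2 to 0.999 without vehicle C05, and with every sample in the log2 fold change was 0.44 (Padj = 0.923). Leaving out each kept sample in turn gave log2 fold changes from 0.41 without vehicle C02, the sample with the least Pomc, to 0.69 without Cort C03. With the groups taken from the names in the normalised table, an alternative chosen after the data were seen, the log2 fold change was -0.12 (Padj = 0.998). In bulk tissue of this kind, more Pomc RNA per cell and more POMC cells in the captured tissue cannot be told apart.

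Markers of the cell types around the POMC neurons were measured in the same 2 day samples. In the kept samples the AgRP neuron genes Agrp and Npy, of the neighbouring neurons that drive feeding, summed to 429 to 692 CPM with vehicle and 773 to 1067 CPM with Cort. Of these 2 genes 1, Agrp, passed at Padj = 0.0103 by edgeR, where 0.065% of all genes tested passed. Agrp averaged 2.50 times its vehicle level (1.86 to 3.35) and Npy 1.40 times (1.14 to 1.74, Padj = 0.521). The Agrp call ended without vehicle C02 (Padj = 0.147) and over all 10 samples, where its log2 fold change went from 1.32 to 0.81 (Padj = 0.923), and with the names of the normalised table it turned to -0.64 (Padj = 0.997). In the kept samples the 6 oligodendrocyte markers summed to 229 to 269 and 308 to 461 CPM with 1 of the 6 tested passing, the 6 tanycyte markers to 99.5 to 191 and 164 to 256 CPM with 0 of the 5 tested passing, and the 5 astrocyte markers to 917 to 1002 and 812 to 986 CPM with 0 of the 5 tested passing. The left out vehicle samples C07 and C09 had sums of 1197 and 1011 CPM for AgRP neurons. Their sums were 536 and 370 CPM for oligodendrocytes, and 437 and 282 CPM for tanycytes. Left out Cort C08 was at 1781, 620 and 461 CPM for the same lists. Those vehicle sums lay within or above the kept Cort ranges, so over all 10 samples the groups overlapped. Of these lists, 0 had a gene at or under 3 counts in all 10 samples. Their part in the level of Pomc was not tested.

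**Figure D1:**
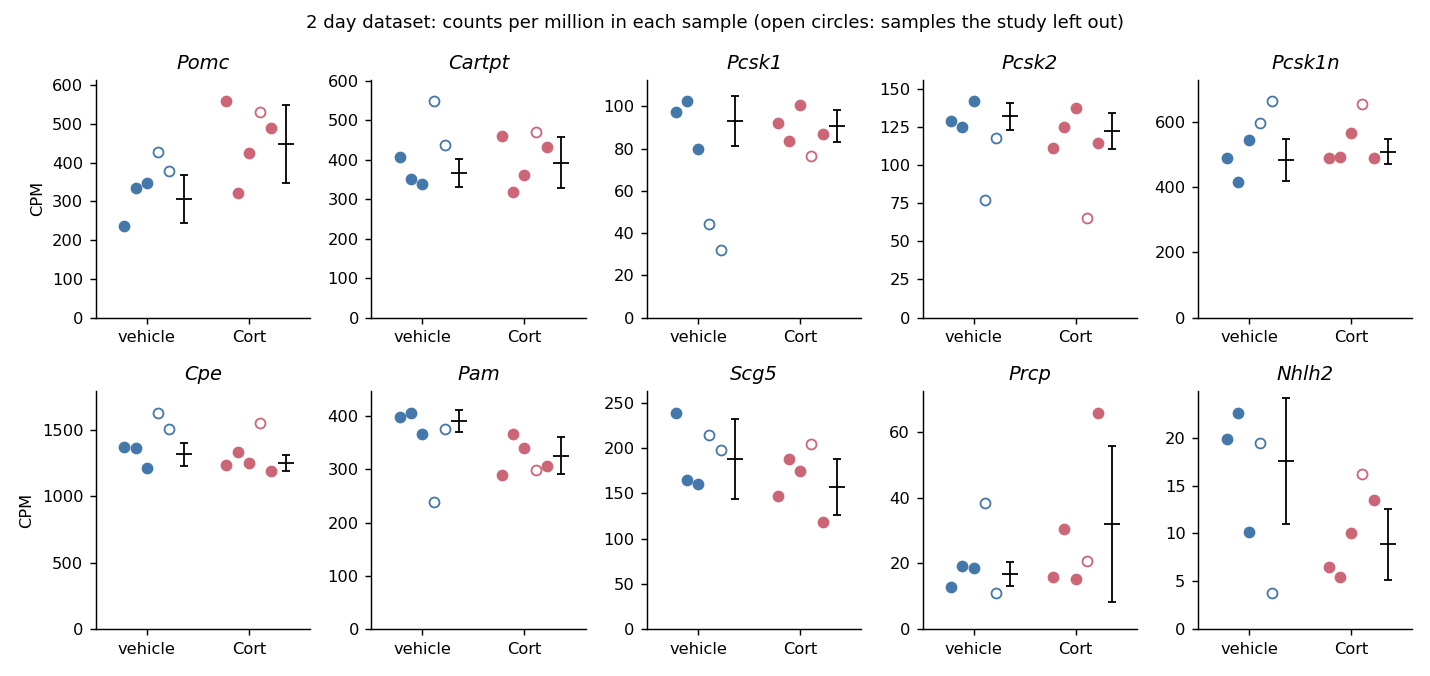
CPM (y axis) of each of the 10 genes in every 2 day sample, vehicle in blue and Cort in red. Filled circles are the samples kept, open circles those left out by the authors, and the bar gives the mean and SD of the kept samples. In the Pomc panel Cort C01 is the highest at 558 CPM and vehicle C02 the lowest at 236 CPM, and in every panel the kept groups overlap.

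Cartpt (ENSMUSG00000021647, chr13:99898489-99901091, minus strand), which shares many cells with Pomc, had a log2 fold change near 0. Its vehicle levels were 407 in C02, 352 in C04 and 339 in C05, against 548 in C07 and 438 in C09 among those left out (CPM), and its Cort levels were 459 in C01, 319 in C03, 360.1 in C06 and 432 in C10, against 471 in C08 among those left out (CPM). The groups overlapped throughout, and the left out vehicle sample C07 had the highest value. The log2 fold change was 0.11 ± 0.15 (SE) with Padj = 0.953, and its 95% interval of -0.19 to 0.41 left room for a fold from 0.874 to 1.33.

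The convertases were nearly level between groups among the samples kept. Pcsk1 (ENSMUSG00000021587, chr13:75089826-75134861, plus strand) ranged over 79.9 to 102 CPM with vehicle and 83.5 to 101 CPM with Cort, and its log2 fold change was -0.028 ± 0.21 (SE) (Padj = 0.994). The vehicle samples left out were lower, at 44.1 CPM in C07 and 31.9 CPM in C09, and with all 10 samples the value turned to 0.31. Pcsk2 (ENSMUSG00000027419, chr2:143546156-143816285, plus strand) ranged over 125 to 142 CPM with vehicle and 111 to 138 CPM with Cort, a log2 fold change of -0.10 ± 0.18 (SE) (Padj = 0.968). The Pcsk2 annotation overlaps the antisense genes Pcsk2os1 and Pcsk2os2 over 4.54% of its exon bases, and the library kit does not mark strand, so a part of its counts is uncertain.

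The partners of the convertases also stayed within their spread. Pcsk1n (ENSMUSG00000039278, chrX:7919822-7924410, plus strand) had a mean CPM of 483 ± 64.2 (SD, n = 3) for vehicle against 509 ± 37.8 (SD, n = 4) for Cort (Padj = 0.962). The 95% interval of its fold was 0.883 to 1.28, and 6.16% of its exon bases are shared with Eras. Scg5 (ENSMUSG00000023236, chr2:113776362-113829121, minus strand) had means of 188 ± 44.2 (SD, n = 3) for vehicle against 157 ± 30.8 (SD, n = 4) for Cort, a log2 fold change of -0.25 ± 0.19 (SE) (Padj = 0.924), and the difference was mostly that of vehicle C02 at 239 CPM, since it was -0.043 without that sample.

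Of the enzymes that finish the peptides, Cpe was the most closely bounded of the 10 genes and Pam had most of its Cort values below its vehicle values. Cpe (ENSMUSG00000037852, chr8:64592542-64693054, minus strand) had a mean CPM of 1316 ± 86.7 (SD, n = 3) for vehicle against 1249.6 ± 60.2 (SD, n = 4) for Cort, and its fold of 0.956 had a 95% interval of 0.830 to 1.10 (Padj = 0.962). Pam (ENSMUSG00000026335, chr1:97795114-98095646, minus strand) was at 398 in C02, 407 in C04 and 367 in C05, against 239 in C07 and 376 in C09 among those left out (CPM, vehicle). With Cort it was at 289 in C01, 367 in C03, 340.1 in C06 and 307 in C10, against 299 in C08 among those left out (CPM). Cort C03 alone of the kept Cort samples reached the vehicle range, by a margin below 1 CPM over C05, while the left out vehicle sample C07 was the lowest of all. The log2 fold change of Pam was -0.25 ± 0.13 (SE) with Padj = 0.865, and it was -0.15 over all 10 samples. B230216N24Rik overlaps 1.58% of the exon bases of Pam.

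Prcp and Nhlh2 had the largest fitted differences at 2 days and the least reads. Prcp (ENSMUSG00000061119, chr7:92874470-92934583, plus strand) was at 12.7 in C02, 19.2 in C04 and 18.5 in C05, against 38.5 in C07 and 10.8 in C09 among those left out (CPM, vehicle), and with Cort at 15.7 in C01, 30.6 in C03, 15.4 in C06 and 66.0 in C10, against 20.7 in C08 among those left out (CPM). Cort C10 stood alone, and the log2 fold change of 0.92 ± 0.48 (SE) (Padj = 0.864) was 0.29 without it. Nhlh2 (ENSMUSG00000048540, chr3:102010076-102015492, plus strand) was at 19.9 in C02, 22.6 in C04 and 10.2 in C05, against 19.4 in C07 and 3.71 in C09 among those left out (CPM, vehicle). With Cort it was at 6.49 in C01, 5.39 in C03, 10.0 in C06 and 13.5 in C10, against 16.2 in C08 among those left out (CPM). The kept groups overlapped through vehicle C05 and Cort C10, and the log2 fold change was -0.98 ± 0.53 (SE) (Padj = 0.865). Over all 10 samples, with vehicle C09 the lowest of them, it was -0.55.

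After 4 weeks of Cort and the fast and refeed, Pomc was level between the kept groups, and the intervals were wider. None of the 10 genes passed Padj below 0.1 by edgeR or DESeq2, and 0 of 10 had an unadjusted P below 0.05 by edgeR, against 1 by DESeq2. Over the 11211 genes tested, 0.0446% passed Padj below 0.1 and 4.91% had an unadjusted P below 0.05. The median log2 fold change was -0.15 beside 0.038 over all genes, with 2 positive and 8 negative. The median width of the 95% interval over the 10 genes was 1.59 on the log2 scale, against 0.74 at 2 days. The kept groups did not overlap for 2 of 10, Pcsk1n and Nhlh2, both lower with Cort, where 6.53% of all genes did not, and over all 10 samples the number was 0, against 0.919%.

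Pomc was at 216 in C02, 192 in C03 and 161 in C04, against 20.2 in C01 and 77.6 in C05 among those left out (CPM, vehicle). With Cort it was at 197 in C07, 206 in C08, 120.1 in C09 and 231 in C10, against 214 in C06 among those left out (CPM). The kept vehicle samples lay inside the range of the kept Cort samples, and the vehicle samples left out were the lowest of the dataset. The log2 fold change was -0.020 ± 0.32 (SE), with a 95% interval of -0.71 to 0.67 and Padj = 0.998. With all 10 samples it was 0.52 (Padj = 0.991), so its direction rested on the samples left out. In C01 the low level was shared by Pcsk1n at 22.9 CPM, Scg5 at 22.9 CPM and Cpe at 493 CPM, and not by Pcsk2 at 205 CPM, and that sample had the fewest counts.

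Beside these values, Npy was 0.201 times its vehicle level (0.109 to 0.370, Padj = 0.0966) and Agrp 0.691 times (0.404 to 1.18, Padj = 0.990). The Npy call ended when any kept sample except Cort C07 was left out, at Padj from 0.417 to 0.636, with log2 fold changes from -2.91 to -2.12 throughout. In the kept samples the 6 tanycyte markers summed to 568 to 937 CPM with vehicle and 246 to 559 CPM with Cort, with 0 of the 5 tested passing and none at or under 3 counts throughout. The left out Cort sample C06 had a tanycyte sum of 606 CPM, so over all 10 samples the groups overlapped. Oligodendrocyte markers summed to 376 to 595 and 207 to 678 CPM in the kept samples, with 0 of the 5 tested passing. Whether these differences bear on the 10 genes was not tested.

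**Figure D2:**
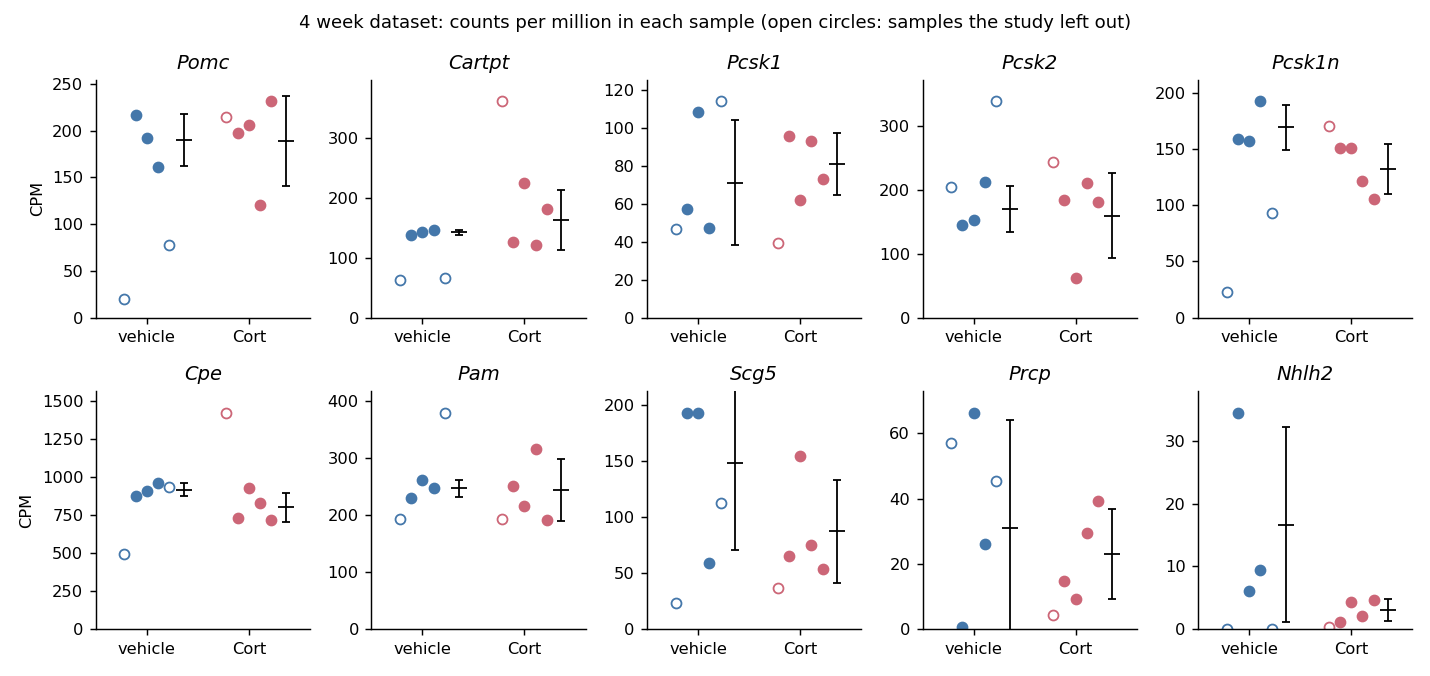
CPM (y axis) of the 10 genes in every 4 week sample, drawn as for 2 days. The kept groups do not overlap for Pcsk1n and Nhlh2. In the Pomc panel the open vehicle circles are C01 at 20.2 CPM and C05 at 77.6 CPM, below every other sample.

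Cartpt was at 138 in C02, 143 in C03 and 147 in C04, against 62.4 in C01 and 65.8 in C05 among those left out (CPM, vehicle), and with Cort at 126 in C07, 225 in C08, 121 in C09 and 182 in C10, against 361 in C06 among those left out (CPM). The kept vehicle samples lay close together inside the Cort range. The log2 fold change was 0.18 ± 0.35 (SE) (Padj = 0.990) in the samples kept and 0.86 over all 10 (Padj = 0.991). Cort C06 had the highest level of the dataset and vehicle C01 the lowest.

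Pcsk1 was at 47.0 to 109 CPM with vehicle and 62.1 to 95.5 CPM with Cort, and its log2 fold change was 0.18 ± 0.48 (SE) (Padj = 0.994). Pcsk2 was at 145 to 212 and 61.7 to 211 CPM, with Cort C08 the lowest of all samples, and its log2 fold change was -0.10 ± 0.40 (SE) (Padj = 0.995). The intervals, -0.85 to 1.20 and -0.96 to 0.75, took in a doubling of Pcsk1 and a loss of nearly that size for Pcsk2.

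The inhibitor of Pcsk1 was lower in every kept Cort sample. Pcsk1n was at 159 in C02, 157 in C03 and 193 in C04, against 22.9 in C01 and 93.5 in C05 among those left out (CPM, vehicle), and with Cort at 151 in C07, 151 in C08, 122 in C09 and 106 in C10, against 170.3 in C06 among those left out (CPM). The gap between the groups was narrow, 157 against 151 CPM, and the vehicle samples left out lay below every Cort sample. Its log2 fold change was -0.37 ± 0.33 (SE) with Padj = 0.990, and 0.15 over all 10 samples, so its direction rested on which samples were taken. Scg5 was at 193 in C02, 193 in C03 and 58.7 in C04, against 22.9 in C01 and 112 in C05 among those left out (CPM, vehicle). With Cort it was at 65.0 in C07, 154 in C08, 75.2 in C09 and 53.2 in C10, against 36.2 in C06 among those left out (CPM). Vehicle C02 and C03 were the highest, while vehicle C04 lay within the Cort range. The log2 fold change of Scg5 was -0.78 ± 0.49 (SE) with Padj = 0.990, and leaving out a sample moved it from -0.53 without vehicle C02 to -1.21 without Cort C08.

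Cpe had a mean CPM of 917 ± 42.8 (SD, n = 3) for vehicle against 802 ± 97.1 (SD, n = 4) for Cort, a fold of 0.867 (0.666 to 1.13, Padj = 0.990). Pam had means of 246 ± 15.5 (SD, n = 3) against 243 ± 53.9 (SD, n = 4), a fold of 0.979 (0.649 to 1.48, Padj = 0.995). Both intervals lay within a doubling and a halving.

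Nhlh2 had the largest fitted difference of the 10 genes at 4 weeks, on few reads. It was at 34.5 in C02, 6.03 in C03 and 9.40 in C04, against 0 in C01 and 0 in C05 among those left out (CPM, vehicle), and with Cort at 1.03 in C07, 4.29 in C08, 2.06 in C09 and 4.61 in C10, against 0.315 in C06 among those left out (CPM). In raw counts this was 102, 15 and 21 in the kept vehicle samples and 5, 18, 4 and 15 with Cort. The vehicle samples left out had 0 counts, which allows up to 2.81 CPM in C01 and 1.15 CPM in C05, so over all 10 samples the groups overlapped. The log2 fold change was -2.47 ± 1.25 (SE) with Padj = 0.990, DESeq2 gave Padj = 0.675, and without vehicle C02 it was -1.34. Prcp ran from 0.676 CPM (2 counts) to 66.3 CPM among the kept vehicle samples, a wider range than the 9.05 to 39.3 CPM with Cort, and its log2 fold change of -0.44 ± 1.04 (SE) (Padj = 0.994) became 0.80 without vehicle C03.

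The effects at 4 weeks and 2 days were compared as an interaction over the 14 samples kept. For 0 of the 10 genes did the difference pass Padj below 0.1 or reach an unadjusted P below 0.05, by edgeR or by DESeq2, and over 12777 genes these shares were 0.0157% and 6.49% by edgeR. The smallest P was that of Pomc, whose 4 week effect was lower than its 2 day effect by a log2 difference of -0.58 ± 0.34 (SE), with a 95% interval of -1.29 to 0.13 and Padj = 0.851. Pcsk1n was next, at -0.45 ± 0.27 (SE) (Padj = 0.851). The differences of the other 8 genes lay between -1.49 for Nhlh2 and 0.23 for Pam, each with an interval that took in 0. With all 10 samples of each dataset the difference for Pomc was 0.080, and that for Cartpt was 0.87 (Padj = 0.771). For Npy, the difference of -2.80 ± 0.47 (SE) did pass (Padj = 0.0677), though not in 9 of the 14 fits that left out a sample nor with all 10 samples of each dataset. With the 2 day names of the normalised table the differences were 0.098 for Pomc and -2.10 for Npy (Padj = 0.513).

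**Figure D3:**
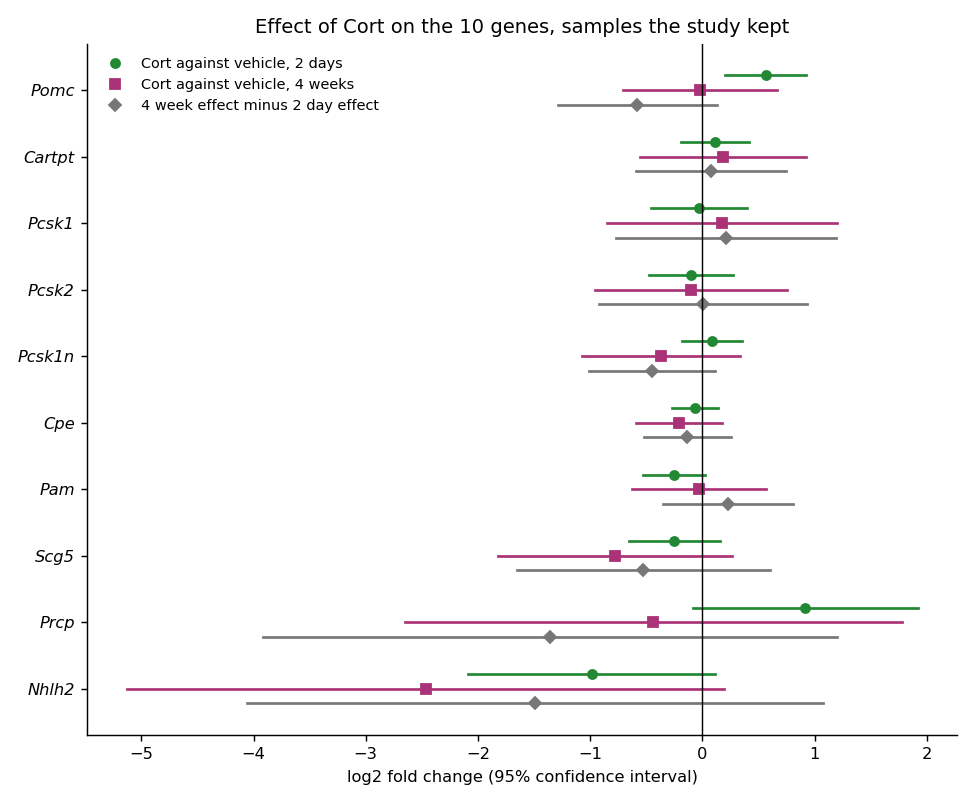
Log2 fold change (x axis) of each of the 10 genes with its 95% confidence interval, for Cort against vehicle at 2 days (circles), at 4 weeks (squares) and for the 4 week minus the 2 day effect (diamonds). The 2 day interval of Pomc, 0.20 to 0.93, is the only one that leaves out 0, and those of Nhlh2 and Prcp are the widest.

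Ratios between 2 genes of the same sample were also compared, since they do not depend on the scaling of the library. All 5 vehicle and 5 Cort samples entered, for which the smallest P of an exact permutation test is 0.00794, against 0.0286 for the 3 and 4 samples kept. At 2 days the log2 ratio of Pomc to Cartpt in the vehicle samples was -0.79 in C02, -0.071 in C04, 0.035 in C05, -0.36 in C07 and -0.22 in C09. In the Cort samples it was 0.28 in C01, 0.017 in C03, 0.24 in C06, 0.17 in C08 and 0.18 in C10. The ratio was of CPM not divided by length, so its sign does not order the genes by abundance. It was above 0 in all 5 Cort samples and, of the vehicle samples, in C05 alone, which passed the lowest Cort sample. The mean ratio was higher with Cort by 0.46 on the log2 scale (exact 2-sided permutation test, P = 0.0159), and adjusted over the 6 ratio tests this was P = 0.0952, above the 0.05 used for these tests and below the 0.1 used for Padj elsewhere. Leaving out a sample gave adjusted values from 0.0476 without vehicle C05 to 0.238 without Cort C01, C06, C08 or C10. With the names of the normalised table the difference was 0.037, and in the 7 samples kept the difference was 0.45 (exact P = 0.0571).

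The other ratios passed neither threshold. At 2 days the ratio of Pcsk1 to Pcsk2 was higher with Cort by 0.54 (exact P = 0.0873, adjusted 0.262) over all 10 samples but by only 0.080 in the 7 kept. The ratio of Pomc to Agrp was lower with Cort at 2 days, by a difference of -0.49 (exact P = 0.230, adjusted 0.460), and in the kept samples every Cort value lay below every vehicle value, at -0.47 to 0.58 against 0.61 to 1.03 (exact P = 0.0571). The left out vehicle samples C07 at -0.39 and C09 at -0.21 lay inside that Cort range, so over all 10 samples the groups overlapped. At 4 weeks the differences were 0.053 for Pomc to Cartpt, 0.33 for Pcsk1 to Pcsk2 and 0.76 for Pomc to Agrp, with adjusted permutation P from 0.631 to 0.921.

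**Figure D4:**
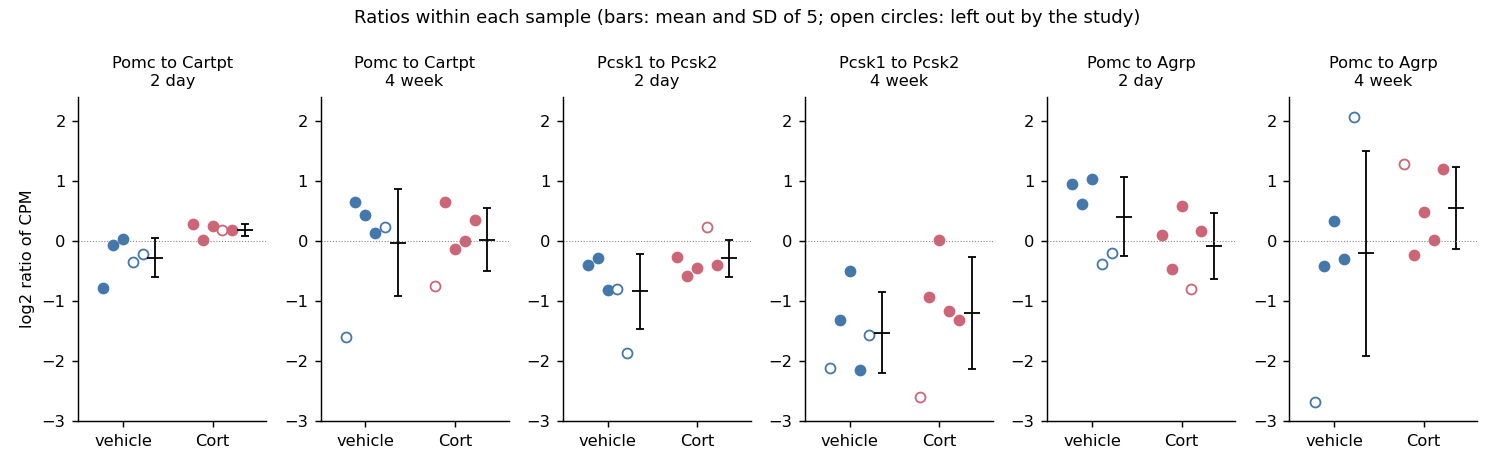
Log2 ratio of the CPM of 2 genes in each sample (y axis), for Pomc to Cartpt, Pcsk1 to Pcsk2 and Pomc to Agrp at 2 days and 4 weeks, with the mean and SD of the 5 samples of a group. For Pomc to Cartpt at 2 days the Cort samples lie between 0.017 and 0.28, and the vehicle samples reach down to -0.79.

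Around these genes, 38 others of the prohormone processing and secretory granule machinery were examined, of which 37 were tested at 2 days and 36 at 4 weeks. By edgeR and by DESeq2 alike, 2 had an unadjusted P below 0.05 in each dataset, where 5.97% and 4.91% of all genes did by edgeR, and 0 passed Padj below 0.1 by either tool. The median log2 fold change was -0.087 at 2 days and -0.065 at 4 weeks. At 2 days both were granins, the acidic proteins that build the granule core. The granins Chga, Scg3 and Vgf of the same list had log2 fold changes of -0.094, -0.096 and -0.21, with no unadjusted P below 0.05. Chgb was at 620.0 ± 91.9 CPM in the kept vehicle samples (SD, n = 3) against 462 ± 39.3 CPM in those given Cort (n = 4), which is a log2 fold change of -0.42 ± 0.13 (SE, Padj = 0.538). Scg2, the precursor of secretoneurin, was at 1449 ± 177 CPM in the kept vehicle samples (SD, n = 3) against 1159 ± 121 CPM in those given Cort (n = 4), which is a log2 fold change of -0.31 ± 0.11 (SE, Padj = 0.686). Among the samples left out at 2 days, Scg2 lay between 815 and 1096 CPM and Chgb between 269.9 and 526 CPM. These samples, vehicle and Cort alike, lay below every kept vehicle sample, the lowest of which had 1244 CPM of Scg2 and 546 CPM of Chgb. At 4 weeks the 2 genes were Qpct, which forms N-terminal pyroglutamate, and the protease Ctsl. Qpct was at 45.8 ± 25.0 CPM in the kept vehicle samples (SD, n = 3) against 12.2 ± 4.33 CPM in those given Cort (n = 4), which is a log2 fold change of -1.92 ± 0.79 (SE, Padj = 0.990). Ctsl was at 115 ± 7.97 CPM in the kept vehicle samples (SD, n = 3) against 203 ± 61.0 CPM in those given Cort (n = 4), which is a log2 fold change of 0.81 ± 0.35 (SE, Padj = 0.990).

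Of the 13 receptors and accessory proteins for melanocortins and opioids, 9 were tested at 2 days and 7 at 4 weeks, and 0 had an unadjusted P below 0.05 in either dataset by edgeR or DESeq2. Their median log2 fold changes were -0.14 and 0.090. Another list held 20 genes for the transcription and identity of POMC neurons, and these genes are not all specific to those cells. In bulk tissue a change in any of them cannot be assigned to POMC neurons. Of the 20 genes, 19 were tested at 2 days and 17 at 4 weeks, and 0 passed Padj below 0.1 by edgeR. DESeq2 passed 1 of them, Cited1 at 2 days (Padj = 0.00732), while edgeR on the 10 samples together gave 0.64 on the log2 scale (Padj = 0.769). At 2 days 3 of the 19 had an unadjusted P below 0.05, against 5.97% of all genes, 2 higher and 1 lower with Cort, and the list's median was 0.093. Cited1, a transcriptional coactivator, was at 236 ± 41.9 CPM in the kept vehicle samples (SD, n = 3) against 413 ± 82.3 CPM in those given Cort (n = 4), which is a log2 fold change of 0.82 ± 0.17 (SE, Padj = 0.166). The leptin receptor Lepr was at 9.10 ± 3.72 CPM in the kept vehicle samples (SD, n = 3) against 23.5 ± 8.09 CPM in those given Cort (n = 4), which is a log2 fold change of 1.37 ± 0.48 (SE, Padj = 0.686). The serotonin receptor Htr2c was at 42.3 ± 9.21 CPM in the kept vehicle samples (SD, n = 3) against 18.8 ± 8.11 CPM in those given Cort (n = 4), which is a log2 fold change of -1.15 ± 0.39 (SE, Padj = 0.621). The kept groups did not overlap for these 3 genes, as for 6.63% of all genes. These 3 were picked by their P in the same samples, so the lack of overlap adds no support of its own. The samples left out lay at 347 to 595 CPM for Cited1, where the lowest kept Cort sample had 295 CPM, and at 3.44 to 10.9 CPM for Htr2c, below every kept vehicle sample, so with the left out vehicle samples in, the groups overlapped for both. For Lepr they lay at 5.99 to 38.1 CPM. With the names of the normalised table the log2 fold changes were -0.43 for Cited1, -0.26 for Lepr and -0.12 for Htr2c.

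At 4 weeks 2 of the 17 genes of that list had an unadjusted P below 0.05 by edgeR, against 4.91% of all genes, both higher with Cort, and 3 by DESeq2, with a list median of -0.34. The transcription factor Sox14 was at 0 to 1.61 CPM with vehicle and 2.06 to 32.6 CPM with Cort (Padj = 0.990), with 0 in each sample left out, Cort C06 included. The incretin receptor Glp1r was at 21.6 ± 13.8 CPM in the kept vehicle samples (SD, n = 3) against 75.2 ± 38.8 CPM in those given Cort (n = 4), which is a log2 fold change of 1.79 ± 0.69 (SE, Padj = 0.990), and the samples left out ranged from 11.7 to 316 CPM.

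**Figure D5:**
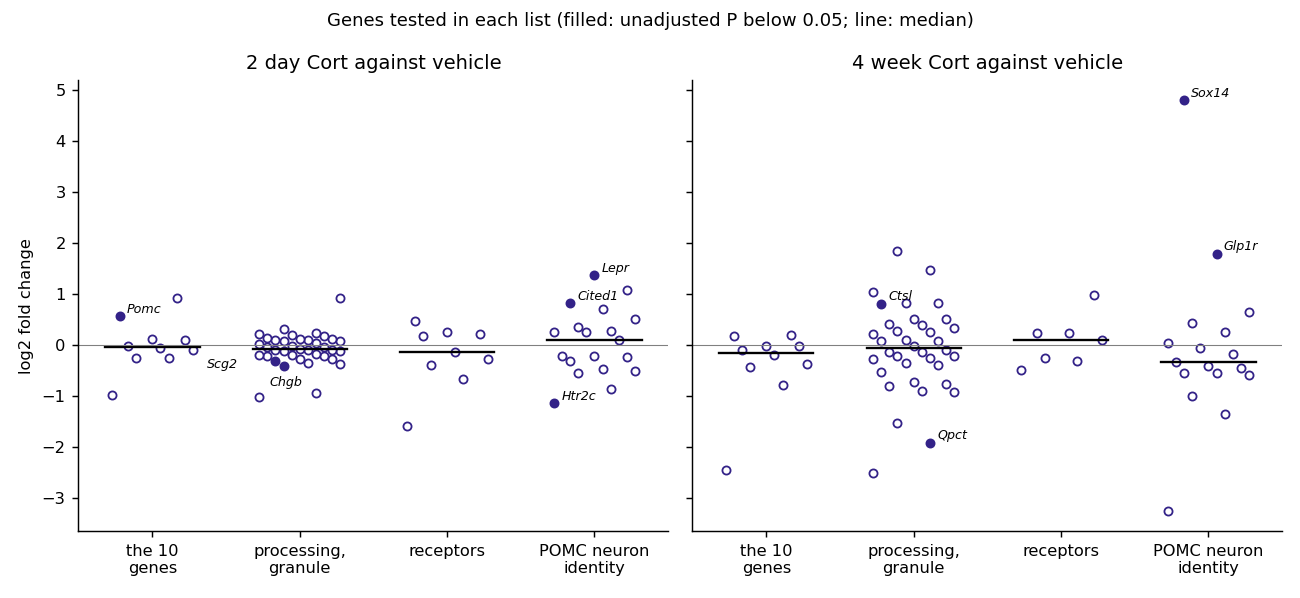
Log2 fold change (y axis) of every tested gene among the 10 genes and in the 3 lists around them, at 2 days and 4 weeks, with a line at the median. Filled circles have an unadjusted P below 0.05. The medians lie between -0.34 and 0.093, and the points spread more widely at 4 weeks.

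The genes whose levels most followed Pomc from sample to sample were found from the deviations of log2 CPM from the group means over the 10 samples of each dataset, taking the lower Pearson r of both. Of 8119 genes, the 5 closest were Gpatch1 (r = 0.871 at 2 days and 0.870 at 4 weeks), Hspbp1 (0.789 and 0.802), Npy (0.743 and 0.808), Cx3cr1 (0.811 and 0.733) and Anxa5 (0.884 and 0.727). Cartpt stood at place 13 (0.681 and 0.701), ahead of the other 7 of the 10 genes that could be ranked, while Nhlh2 had too few counts to be ranked. Pcsk1n followed Pomc closely at 4 weeks (0.931) and less at 2 days (0.413). The values at 4 weeks leaned on vehicle C01, the sample lowest in Pomc. Without it the r of Gpatch1 was 0.298, that of Hspbp1 0.442, that of Npy 0.519, that of Cx3cr1 0.125 and that of Anxa5 0.585, whereas Cartpt was at 0.727 and Pcsk1n at 0.643. These points share depth and dissection, and the r values are a description of the samples.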

How the data were processed

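RNA from laser-captured ARC of the 20 samples was amplified without molecular identifiers and sequenced. The authors mapped single-end reads to GRCm38 with Rsubread, assigned them to genes with featureCounts and deposited the raw count of 22048 genes per sample. The submitters' processing notes also name CASAVA 1.7 and DESeq2. The annotation release and strand setting are not given in the sources used here. The signal values in the deposited normalised tables are these counts divided by a size factor per sample, and they were used only to match columns and symbols. The fold changes, statistics and p-values in those tables, which hold the authors' own comparisons, were not used. Groups followed the library names and the study's sample sheet, since the columns carry no label of a replicate. At 2 days 5 of the 7 normalised columns carry the name of another raw column, 4 of them a name of the other treatment. The raw names were used, so every 2 day group, ratio and deviation from a group mean rests on them, and the names of the normalised table were tried as an alternative chosen after the data were seen.

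Genes were kept by edgeR's filterByExpr, normalised with TMM factors and tested, 2-sided, by quasi-likelihood F test (R 4.3.3, edgeR 4.0.16) in the 7 samples kept, with Benjamini-Hochberg adjustment over all genes tested and calls at Padj below 0.1. The interaction used 14 samples. Log2 CPM carried a prior count of 2. The ratios used exact permutation tests (Python 3.11.15, scipy 1.17.1, pandas 2.3.3, numpy 2.4.6, matplotlib 3.10.9). Coordinates, lengths and sequences are from GENCODE M21 on GRCm38. The alternatives were DESeq2 (1.42.0) without a fold change prior, its size factors in edgeR, a minimum of 10 counts per sample, no filter, all 10 samples, limma (3.58.1) voom with sample quality weights, and leaving out each sample in turn. The fits were tested on simulated data. No pair of samples of a group agreed within sampling noise, with a chi-square per gene of at least 14.0 at 2 days and 25.6 at 4 weeks, where 1 is noise alone. Nothing says which animals the samples came from beyond the treatment groups, so p-values measure the spread between these samples, which may be technical. Floors cover counting error only.

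The 10 genes, the lists and the tests were chosen with earlier results of these data known. Beyond the 10 genes, those named are Agrp and Npy, the list genes with an unadjusted P below 0.05 (at most 6 in each dataset) and the 5 genes most like Pomc among those with at least 10 counts in all but 2 samples of each dataset. The ependymal list summed to 0.630 to 42.3 CPM over all 20 samples. The astrocyte list in the kept 4 week samples summed to 675 to 841 CPM with vehicle and 792 to 886 CPM with Cort. In these lists 0 genes passed, and Tmem212, an ependymal gene, was at or under 3 counts in all 2 day samples.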

Additional observations from a re-analysis of the deposited data

Results flagged for a closer look

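Of the 40 groups of 5 samples formed by the 10 genes, 3 held a sample whose gap to its nearest neighbour, divided by the range of the group, was above Dixon's 95% value of 0.71, where chance gives about 1 in 20 groups. Cpe was at 493 CPM in 4 week vehicle C01, the lowest of the 5 and next to 879 CPM, with a gap of 0.820 of the range, and the authors had left that sample out. Pam was at 239 CPM in 2 day vehicle C07, also left out, where the next sample had 367 CPM and the gap was 0.764 of the range. Nhlh2 was at 34.5 CPM in 4 week vehicle C02, a sample that was kept, while the next highest had 9.40 CPM and the gap was 0.727 of the range. Without that sample the 4 week log2 fold change of Nhlh2 was -1.34 in place of -2.47.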

How the results depend on the processing

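No paired analysis was possible because the count columns carry no replicate number from the labels. Across the settings other than leaving out a sample, 307 of 362 values kept their direction and side of the threshold, and in no setting run did any of the 10 genes pass Padj below 0.1 in any of the 3 comparisons. The directions that turned were of values that were not called, except Agrp at 2 days. With all 10 samples they became -0.020 for Cartpt and 0.31 for Pcsk1 at 2 days, 0.52 for Pomc, -0.065 for Pcsk1, 0.15 for Pcsk1n and 0.14 for Cpe at 4 weeks, and 0.080 for Pomc, -0.36 for Pcsk1, -0.18 for Pcsk2, 0.15 for Pcsk1n, 0.24 for Cpe and -0.028 for Pam in the difference between datasets. With voom weights they were 0.14 for Pcsk1 at 2 days, 0.32 for Pomc and 0.46 for Prcp at 4 weeks, and -0.027 for Pcsk1, -0.057 for Pcsk2 and 0.018 for Cpe in the difference. The Pcsk2 difference, 0.0039 as reported, was -0.018 by DESeq2, -0.018 with its size factors and -0.030 with at least 10 counts in every sample. The Pomc to Cartpt ratio at 4 weeks was -0.19 in the 7 samples kept. With the 2 day groups named as in the normalised table, chosen after the data were seen, the 2 day values turned to -0.12 for Pomc, 0.12 for Pcsk2, 0.056 for Scg5, 0.21 for Nhlh2, -0.64 for Agrp, -0.20 for Npy, -0.43 for Cited1, -0.26 for Lepr and 0.45 for the Pomc to Agrp ratio. The differences between datasets turned to 0.098 for Pomc, -0.21 for Pcsk2, -0.018 for Pam and 0.11 for Agrp. Under those names the number with an unadjusted P below 0.05 was 0 of the 10 genes and 0 of the processing list at 2 days, and 1 of the 10 for the difference, and 0 of all genes passed Padj below 0.1 at 2 days by edgeR, with 599 at an unadjusted P below 0.05, and 1 for the difference. The cause was not tested.

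The number of the 10 genes with an unadjusted P below 0.05 was 2 at 2 days without a filter, 1 at 4 weeks by DESeq2 and with all 10 samples, and 1 for the difference with all 10 samples. With all 10 samples it was 1 gene of the processing list at 2 days and 1 of the POMC neuron list at 4 weeks. Leaving out a sample gave 1 to 2 of the 10 genes at 2 days and 0 to 1 at 4 weeks. It moved the log2 fold change over -0.12 to 0.045 for Pcsk1 and -0.012 to 0.18 for Pcsk1n at 2 days. At 4 weeks the ranges were -0.14 to 0.14 for Pomc, -0.011 to 0.30 for Cartpt, -0.045 to 0.63 for Pcsk1, -0.27 to 0.16 for Pcsk2, -0.18 to 0.068 for Pam and -0.99 to 0.80 for Prcp. For the difference they were -0.12 to 0.19 for Cartpt, -0.011 to 0.65 for Pcsk1 and -0.17 to 0.26 for Pcsk2. The Pomc to Cartpt difference ranged over 0.33 to 0.54 at 2 days and -0.34 to 0.25 at 4 weeks. Prcp and Nhlh2 did not reach 10 counts in every sample at 4 weeks and have no value there under that filter. Over all genes DESeq2 passed 54 genes at 2 days, 43 at 4 weeks and 39 for the difference, against 8, 5 and 2 by edgeR, while edgeR without a filter passed 24, 9 and 2, with all 10 samples 2, 1 and 0, and voom 4, 6 and 0. Leaving out a sample gave 1 to 16, 0 to 10 and 0 to 3. The Agrp call at 2 days and the Npy call at 4 weeks also ended with voom weights (Padj = 0.129 and 0.426), and DESeq2 passed the Agrp difference between datasets (Padj = 0.0251). Without 4 week vehicle C01 the Pearson r with Pomc turned to -0.502 for Pcsk1 and -0.923 for Pam. At 4 weeks the depth and the wide intervals limit what could be seen.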

Other observations

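At 2 days Pam, the amidating enzyme, tended to be low in the samples of a group where Pomc was high. The Pearson r of their deviations from the group means was -0.712 over the 10 samples at 2 days. At 4 weeks it was 0.0499 over 10 samples and -0.923 without vehicle C01, a setting chosen after the data were seen. The convertases had negative values as well, with -0.482 for Pcsk1 and -0.557 for Pcsk2 at 2 days, and -0.502 and -0.531 at 4 weeks without C01, against 0.115 and -0.264 with it. Cpe had 0.271 at 2 days. The points share depth and dissection, and these values are a description with no test.

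The samples left out at 2 days had more Agrp than the kept samples of their group, at 560.2 CPM in vehicle C07, 437 CPM in vehicle C09 and 924 CPM in Cort C08. In the same samples Pcsk1 was lower than in the kept samples of the group, at 44.1, 31.9 and 76.6 CPM, and Cpe was higher, at 1629, 1505 and 1548 CPM.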
